A study of Mus musculus with 4 samples.

Results

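The oxidative phosphorylation genes were taken as the rows whose gene symbol begins with the names of the subunits of complex I (Nduf with the letter a, b, c, s or v and a digit), complex II (Sdha to Sdhd), complex III (Uqcr and Cyc1), complex IV (Cox4 to Cox8) and ATP synthase (Atp5). The pattern found 85 of 28649 gene rows: 35 of complex I, 4 of complex II, 9 of complex III, 20 of complex IV and 17 of ATP synthase. Ndufa4 and its paralog Ndufa4l2 were placed with complex IV, where the Ndufa4 protein is now known to sit. Of the 85 genes, 74 encode common structural subunits, 8 are isoforms of complex IV subunits that only some tissues use, and 3 (Atp5s, Atp5sl and Cox7a2l) are named after a complex but are not subunits of it. All 85 are nuclear genes. Genes of the mitochondrial genome, which also encodes subunits of complexes I, III, IV and ATP synthase, were not analysed here. Ndufab1, another complex I subunit, has no digit at the place the pattern requires and is not counted among the 85.

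Fibro-adipogenic progenitors (FAPs) are mesenchymal cells of skeletal muscle that can form fibroblasts and adipocytes. RNA was measured in cultured FAPs, sorted as Sca1+ cells from the skeletal muscle of mice, in 2 libraries labelled miR-206 KO (called KO) and 2 labelled C57Bl/6 (called WT). All 4 cultures were grown to about 90% confluence in DMEM with 20% FBS, 10% HS and 5 ng/ml FGF and then held for 48 hours in DMEM with 10% HS. The labels give neither the age of the mice nor the strain background of the KO line, so genotype and strain cannot be told apart. Nor do they state that the 2 replicates of a genotype are different animals or cultures. The p-values therefore reflect no more than how far these libraries spread, and that spread may be technical. The transcript of miR-206 itself was not analysed here, so the knockout was not checked at its own locus.

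Oxidative phosphorylation passes electrons from NADH (complex I) and succinate (complex II) through coenzyme Q to complex III, through cytochrome c to complex IV and on to oxygen. Complexes I, III and IV pump protons across the inner mitochondrial membrane, and ATP synthase uses the returning protons to make ATP. Nuclear subunit genes are known targets of the transcription factors NRF1 and GABPA and of the coactivator PGC-1alpha, and muscle fibres and adipocytes are known to carry more of these complexes than resting fibroblasts. Several complex IV subunits exist as a ubiquitous form and a form restricted to heart and skeletal muscle, testis or lung.

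The promoters of the subunit genes were searched for 3 short motifs known from such genes, on both strands, in the 250 bases before and the 50 bases after the RefSeq start (build GRCm38.p6). The table held promoters for 69 of the 85 genes, 62 of them common subunits. The NRF1 core, spelled GCGCATGCG, was found in the promoters of 8 of the 62 genes (12.9%), against 1.95% of 27025 genes in all. With only the 250 bases before the start it was found in 6 (9.68%), against 1.64%. The ETS core that GABPA binds, spelled CCGGAAGT, was found in 5 (8.06%), against 4.31% of all, and with only the 250 bases before the start in 3 (4.84%), against 3.23%. A YY1 motif, spelled AAGATGGCG, was found in 7 (11.3%), against 1.64% of all, and with only the 250 bases before the start in 1 (1.61%), against 0.71%. The sequences below were picked as follows. Atp5k and Atp5g2 carry the same NRF1 letters and had fold changes of opposite sign (-0.23 and 0.19 on the log2 scale). Cox6a1 carries them and had nearly equal levels in the 4 libraries. Uqcr11 (-0.20) is a complex III gene with an ETS core, and Atp5j has a YY1 motif. An ETS core before the start was also found in Uqcrh (-0.04), another complex III gene, and Atp5h (-0.03), not shown. Capitals mark the motif, and where the NRF1 core reads on both strands they mark the overlapping pair.
Atp5k, chr5:108434430-108434459, minus strand: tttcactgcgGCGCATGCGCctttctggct
Atp5g2, chr15:102671070-102671099, minus strand: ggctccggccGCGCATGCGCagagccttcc
Cox6a1, chr5:115349101-115349130, minus strand: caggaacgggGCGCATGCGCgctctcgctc
Uqcr11, chr10:80406868-80406897, minus strand: tctctcctccCCGGAAGTagatgtcaatgt
Atp5j, chr16:84835045-84835074, minus strand: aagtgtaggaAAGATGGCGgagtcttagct

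The common subunit genes lay slightly lower in KO than in WT, and no oxidative phosphorylation gene passed the test. Of the 83 genes with enough counts to be tested, 0 were called at an adjusted p of 0.05 (edgeR quasi-likelihood F-test, Benjamini-Hochberg over 14507 genes), where 62 of all genes tested were (0.427%, with 0.241% higher and 0.186% lower in KO). At an unadjusted p under 0.05, 11 of the 83 were past the threshold (13.3%), all with the lower level in KO. Over all genes that share was 14.3% in either direction, 7.18% with the lower and 7.16% with the higher level in KO. The count of 11 became 2 without KO replicate 2, 6 without WT replicate 1 and 7 with DESeq2. At an adjusted p of 0.05 DESeq2 also called 0 of the 83. In bulk RNA, fewer cells of a type and less RNA per cell cannot be told apart.

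Among the 74 common subunits, 62 had a negative log2 fold change of KO over WT (83.8%), against 50.4% of all genes tested and 48.4% of the 4158 genes of at least 50 mean CPM (counts scaled to library size). Both KO libraries were below both WT libraries for 33 of the 74 (44.6%), against 24.4% of all genes. They were above both for 2, Ndufv3 and Ndufa6, against 23.8% of all genes. The median log2 fold change of the subunits was -0.09, with a range from -0.39 to 0.19, and that of all genes was -0.00. Standard errors of the subunits ran from 0.06 to 0.21, and the median size of a fold change, in either direction, was 0.09.

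**Figure D1:**
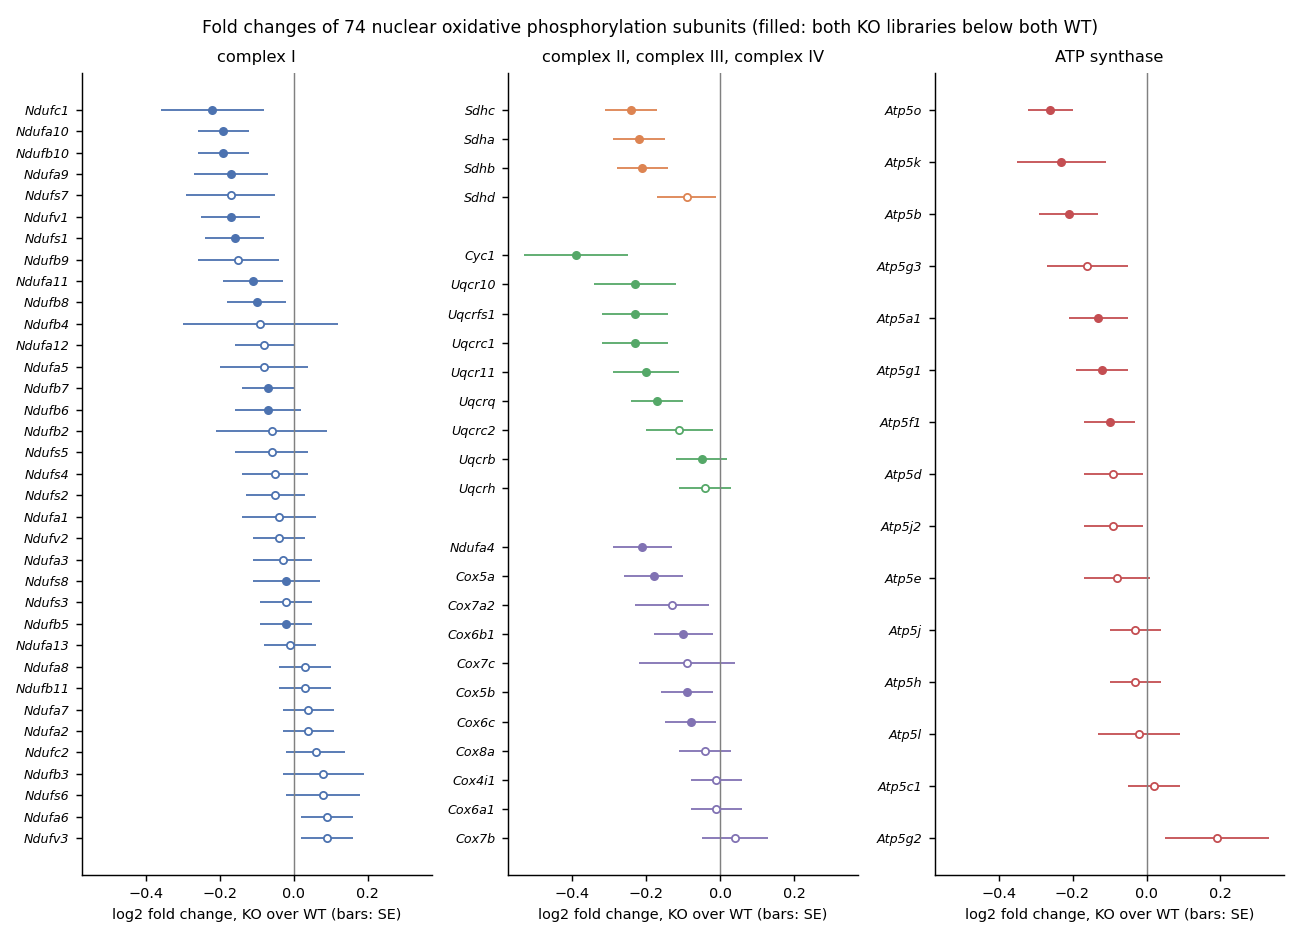
Log2 fold change of KO over WT for the 74 common subunit genes, ordered within each complex, with the edgeR standard error as a bar (2 libraries per genotype). Filled points are genes whose KO libraries were both below both WT libraries; all 13 points of complexes II and III lie left of 0, and Cyc1 reaches -0.39.

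The size of the difference varied between complexes. The median log2 fold change was -0.22 for the 4 subunits of complex II, -0.20 for the 9 of complex III, -0.09 for the 11 of complex IV and the 15 of ATP synthase, and -0.05 for the 35 of complex I. The difference between complexes was not tested. TPM, a level scaled for depth and transcript length, can be summed over subunits. Summed TPM of complex III was 1594 and 1657 in KO replicates 1 and 2 and 1859 and 1698 in WT replicates 1 and 2. Over all 74 subunits it was 14261 and 14397 in KO and 15335 and 14700 in WT, so the KO mean was 95.4% of the WT mean. The KO sums were below the WT sums in each complex, for complex I by as little as 4372 against 4376, and the KO means were at 97.8% of WT for complex I, 94.7% for complex II, 91.4% for complex III, 96.3% for complex IV and 94% for ATP synthase. Each of these exact two-sided permutation tests gave p = 0.333, the smallest that 2 libraries against 2 allow.

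The libraries of a genotype did not contribute alike. WT replicate 1 was the highest of the 4 libraries for 45 of the 74 subunits (60.8%), against 27.5% of all genes, and KO replicate 2 was the highest for 3 (4.05%), against 26.5%. The median distance of the subunits from their own mean over the 4 libraries was -0.01 and -0.07 on the log2 scale in KO and 0.08 and 0.01 in WT. Without WT replicate 1, 51 of 74 subunits had a negative fold change in place of 62, and the median over the 83 tested genes went from -0.08 to -0.06. Without KO replicate 2 these values were 54 and -0.04. The median of complex III went from -0.20 to -0.10 without WT replicate 1 and was -0.18 without KO replicate 2. For complex II the median distances were -0.09 and -0.12 in KO and 0.12 and 0.07 in WT. There both WT libraries stood apart from both KO libraries, with WT replicate 1 again the highest. The WT values were also above the KO values for complex III (-0.09 and -0.10 in KO, 0.17 and 0.01 in WT). The same held for ATP synthase (-0.01 and -0.10 in KO, 0.08 and 0.02 in WT).

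**Figure D2:**
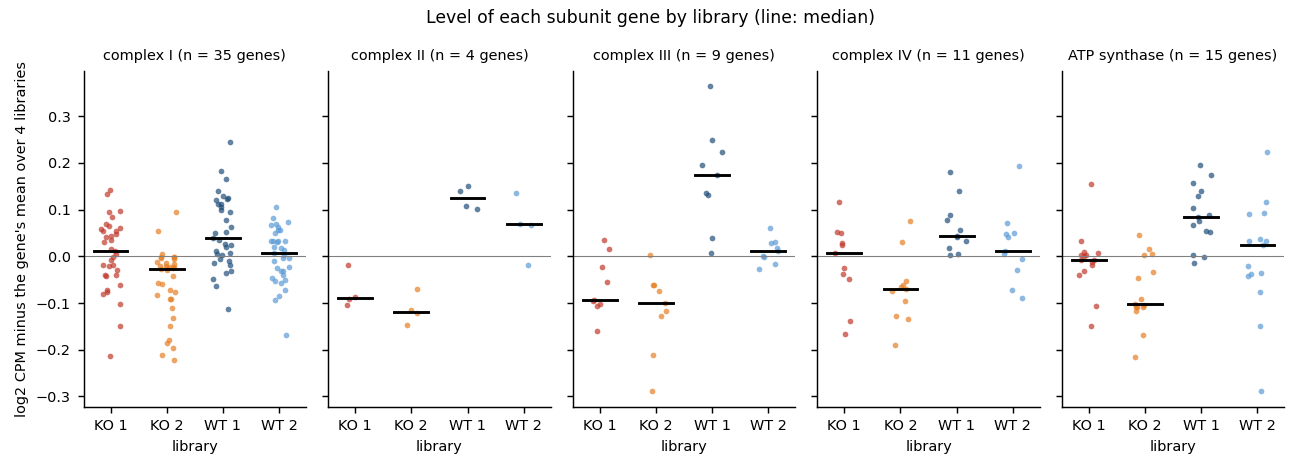
Level of each common subunit gene in each library as log2 CPM minus the gene's mean over the 4 libraries, by complex; each point is 1 gene and the bar is the median. WT replicate 1 is the highest library in each panel, with a median of 0.17 in complex III, and the complex II medians are -0.09 and -0.12 in KO against 0.12 and 0.07 in WT.

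The libraries also differed in RNA of muscle cells and adipocytes. The summed level of 8 FAP markers was 32343 and 30402 CPM in KO and 24274 and 29602 CPM in WT. Of the 8, 6 had a positive fold change and 0 were called. Most of the sum was Col3a1, with 18898 and 17646 CPM in KO and 13197 and 17211 CPM in WT. In summed TPM the genotypes overlapped, at 14474 and 14113 in KO and 11430 and 14817 in WT. Pdgfra had 1959 and 1902 CPM in KO and 1455 and 1520 CPM in WT. Ly6a, which encodes the sort marker Sca1, went the other way, with 657 and 732 CPM in KO and 882 and 1234 CPM in WT (log2 fold change -0.61, edgeR adjusted p = 0.238). The summed level of 14 skeletal muscle markers was 2071 and 227 CPM in KO and 3895 and 2272 CPM in WT, with all 14 of lower mean in KO and 0 called. The summed level of 8 adipocyte markers was 87.1 and 48.8 CPM in KO and 472 and 204 CPM in WT. All 7 tested adipocyte markers had a lower mean in KO, and Cidec, a lipid droplet protein, fell (log2 fold change -3.93, edgeR adjusted p = 0.0468). Cidec was scarce, with 0.232 and 0.229 CPM in KO and 4.71 and 2.44 CPM in WT. The satellite cell markers Pax7 and Myf5 stayed at or below 0.55 CPM, and Ucp1, the uncoupler of brown fat, was at 0 counts in each library. WT replicate 1 was the highest library and KO replicate 2 the lowest for both the muscle and the adipocyte sums. The same held for the median distance of the subunits from their own mean in log2 CPM. Summed subunit TPM was instead lowest in KO replicate 1, at 14261 against 14397 in KO replicate 2. The part of muscle and adipocyte RNA in the subunit levels was not tested.

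Complex I feeds electrons from NADH into the chain. Of its 35 nuclear subunits here, 26 had a negative and 9 a positive fold change. Both KO libraries were below both WT libraries for 12 (34.3%, against 24.4% of all genes). Unadjusted p was under 0.05 for 2 (5.71%, against 14.3% of all genes). Ndufa10, an accessory subunit of the membrane arm, had 64.8 and 65.7 CPM in KO and 76.2 and 72.4 CPM in WT (log2 fold change -0.19, SE 0.07, edgeR adjusted p = 0.297). Ndufb10, another accessory subunit, had 50 and 48.9 CPM in KO and 57.6 and 55.2 CPM in WT, with the same fold change. The groups did not overlap for either gene, but TPM of Ndufa10 was level, at 122 and 126 in KO and 123 and 122 in WT. Ndufc1, at -0.22 the lowest fold change of the complex, had 13.3 and 15.5 CPM in KO and 17.6 and 15.8 CPM in WT.

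At the other end of complex I stood Ndufv3 and Ndufa6, both accessory subunits of its matrix arm. Ndufv3 had 81.3 and 87.0 CPM in KO and 80.9 and 76.8 CPM in WT, and Ndufa6 had 55.6 and 52.6 CPM in KO and 51.8 and 49.9 CPM in WT. Each had a fold change of 0.09 (SE 0.07), and the KO libraries were above the WT libraries only narrowly. The 7 nuclear core subunits, which hold the flavin and iron-sulfur clusters and the quinone site, all had negative fold changes, from -0.17 to -0.02, with 0 at p under 0.05. By mean TPM the complex I subunits ranged from 19.3 to 325, and the most abundant was Ndufa3, with 306 and 344 TPM in KO and 316 and 334 TPM in WT. Next were Ndufa7 (310 and 313 TPM in KO, 302 and 303 in WT) and Ndufv3 (255 and 294 TPM in KO, 261 and 250 in WT). By TPM the genotypes overlapped for Ndufa3 and Ndufv3, and for Ndufa7 the KO values were just above the WT values.

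Complex II, succinate dehydrogenase, is the one complex with no subunit from mitochondrial DNA and is also an enzyme of the tricarboxylic acid cycle. All 4 of its genes had negative fold changes, and 3 had p under 0.05, against 50.4% and 14.3% of all genes. Sdha, the flavoprotein that oxidises succinate (chr13:74322254-74350280, minus strand, mm10), had 202 and 201 CPM in KO and 241 and 228 CPM in WT (log2 fold change -0.22, SE 0.07, edgeR adjusted p = 0.234). Sdhb, the iron-sulfur subunit, had 56.7 and 55.3 CPM in KO and 66.5 and 63.2 CPM in WT (-0.21, SE 0.07). In both genes the KO libraries lay within 2 CPM of each other and below both WT libraries. Sdhd, a membrane anchor, had 75.1 and 72.4 CPM in KO and 82.1 and 75.1 CPM in WT, and the groups met at 75.1.

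Sdhc, the other membrane anchor (chr1:171127165-171150603, minus strand), depended on the unit. Its counts gave 68.0 and 65.3 CPM in KO and 77.8 and 79.7 CPM in WT (log2 fold change -0.24, SE 0.07, edgeR adjusted p = 0.196), while its TPM was 155 and 136 in KO and 119 and 138 in WT (log2 difference 0.18). TPM divides by the length of the transcripts to which reads were assigned, and whether the mix of Sdhc transcripts differed was not tested. Across the 74 subunits, 58 were lower in KO by TPM, against 51% of all genes tested. Both KO libraries were below both WT libraries for 29 of the 74 by TPM and for 24 by both units. The shares of all genes below WT by TPM and by both units were not computed, so these counts have no background. The sign differed between the units for 6 (8.11%, against 9.75% of all genes), and the gap was at least 0.1 on the log2 scale for 5.

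Complex III takes electrons from coenzyme Q to cytochrome c. All 9 subunit genes had negative fold changes. Both KO libraries were below both WT libraries for 7 (77.8%, against 24.4% of all genes). Unadjusted p was under 0.05 for 3 (33.3%, against 14.3% of all genes). Cyc1, cytochrome c1 (chr15:76343523-76346260, plus strand), had the lowest fold change of the 74 subunits, with 50.2 and 43.9 CPM in KO and 69.3 and 54.4 CPM in WT (log2 fold change -0.39, SE 0.14, edgeR adjusted p = 0.299). WT replicate 1 was the highest library, and without it the value was -0.21. Uqcrc1, a core protein of the matrix side, had 102 and 101 CPM in KO and 128 and 110 CPM in WT (-0.23, SE 0.09), and -0.11 without WT replicate 1.

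The Rieske iron-sulfur protein Uqcrfs1 had 47.2 and 41.4 CPM in KO and 54.2 and 50 CPM in WT (-0.23, SE 0.09). Among the small subunits, Uqcr10 (-0.23) had 27.0 and 29.0 CPM in KO and 36.1 and 29.7 CPM in WT. Uqcr11 (-0.20), whose ETS core is shown above, had 46.3 and 46.2 CPM in KO and 56.7 and 49.4 CPM in WT. For each of these the KO libraries were below both WT libraries, with WT replicate 2 nearer to them than WT replicate 1. The most abundant, Uqcrh, was nearly level at 435 and 425 TPM in KO and 437 and 440 TPM in WT, as was Uqcrb at 252 and 279 TPM in KO and 277 and 269 TPM in WT.

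Complex IV, cytochrome c oxidase, passes electrons to oxygen. Of its 11 common nuclear subunits, 10 had negative fold changes. Both KO libraries were below both WT libraries for 5 (45.5%, against 24.4% of all genes). Unadjusted p was under 0.05 for 1 (9.09%, against 14.3% of all genes). The 3 most abundant were Cox6b1, Cox4i1 and Cox8a. Cox6b1 had 528 and 507 TPM in KO and 557 and 546 TPM in WT (log2 fold change -0.10, SE 0.08), and the genotypes did not overlap. Cox4i1, which starts assembly of the complex, had 506 and 493 TPM in KO and 515 and 488 TPM in WT. Cox8a had 480 and 478 TPM in KO and 499 and 478 TPM in WT. Fold changes of Cox4i1 (-0.01), Cox6a1 (-0.01) and Cox8a (-0.04) were within their SE of 0.07, and Cox7b was at 0.04.

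Ndufa4 and Ndufa4l2 went opposite ways in level. Ndufa4, a common complex IV subunit, had 72.3 and 75.8 CPM in KO and 80.7 and 91.1 CPM in WT (log2 fold change -0.21, SE 0.08, edgeR adjusted p = 0.32). Ndufa4l2 (chr10:127514967-127517154, plus strand), known as a gene induced by hypoxia, had 146 and 126 CPM in KO and 110 and 76.1 CPM in WT (0.55, SE 0.21, edgeR adjusted p = 0.372). The groups did not overlap for either gene, and neither passed the test. As a share of the pair's TPM, Ndufa4l2 made up 46% and 40.7% in KO and 36.2% and 26.2% in WT (exact permutation p = 0.333, the smallest possible). Its fold change was 0.31 without WT replicate 2 and 0.83 without WT replicate 1. Ndufa4l2 had a mean of 226 TPM, and the other 5 tested restricted isoforms stayed below 30 TPM on average.

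The isoforms of striated muscle had the library order of the muscle markers, which was also that of the adipocyte markers. Ratios were taken to the muscle markers only. Cox6a2, the heart and muscle form of subunit 6a (chr7:128205435-128206387, minus strand), had 5.62 and 0.982 CPM in KO and 15.1 and 6.15 CPM in WT (log2 fold change -1.67, SE 1.13, edgeR adjusted p = 0.618). Cox8b had 1.33 and 0.0655 CPM in KO and 2.80 and 1.52 CPM in WT, and Cox7a1 had 0.695 and 0.164 CPM in KO and 1.26 and 0.940 CPM in WT. In all 3, KO replicate 2 was the lowest library and WT replicate 1 the highest, in the order of the muscle marker sum. Per 1000 CPM of that sum, Cox6a2 was 2.71 and 4.32 in KO and 3.88 and 2.71 in WT. The ratio of its highest to its lowest library was 15.4 in CPM and 1.6 on this scale. For Cox8b the ratio went from 42.8 to 2.5 and for Cox7a1 from 7.71 to 2.22, where the lowest libraries rested on 2 counts (exact 95% interval 0.242 to 7.22) and 5 counts (1.62 to 11.7). The ubiquitous partner Cox6a1 had 122 and 128 CPM in KO and 125 and 125 CPM in WT, and made up 90.9% to 99.4% of the pair's TPM.

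**Figure D3:**
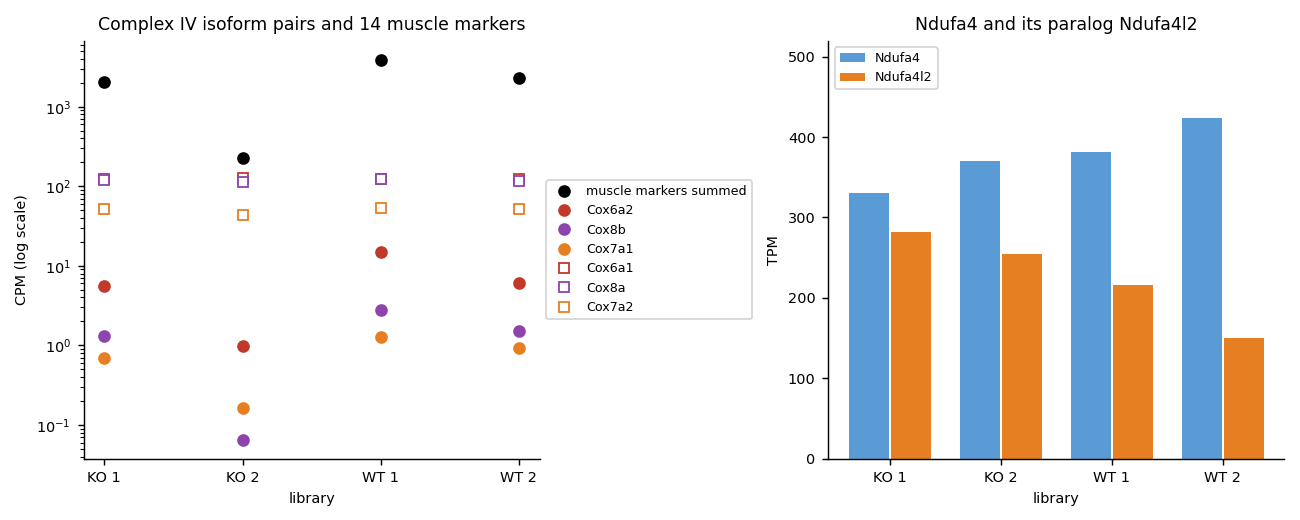
Left, CPM on a log axis in each library for 3 muscle isoforms of complex IV (filled circles), their ubiquitous partners (open squares) and the sum of 14 muscle markers (black circles). Right, TPM of Ndufa4 and Ndufa4l2 in each library. The muscle isoforms are lowest in KO replicate 2 with the markers, the partners are nearly level, and Ndufa4l2 is at 282 and 254 TPM in KO against 216 and 150 TPM in WT.

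The other restricted isoforms did not share that order. Cox6b2, the testis form of subunit 6b, had 4.95 and 7 CPM in KO and 5.72 and 6.58 CPM in WT (-0.04, SE 0.23). Cox4i2, known from lung, had 1.07 and 1.21 CPM in KO and 1.07 and 0.828 CPM in WT (0.27, SE 0.45), or 0.468% to 0.695% of the TPM of the Cox4i1 and Cox4i2 pair. Cox7b2 had 1 count in WT replicate 1 and 0 in the others, and Cox8c had 0 counts in all 4. A count of 0 allows up to 3.69 counts and a count of 1 up to 5.57 (exact 95% Poisson bounds, counting error only), so these testis forms were at or near the limit of detection.

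ATP synthase had 13 of 15 subunits with a negative fold change. Both KO libraries were below both WT libraries for 6 (40%, against 24.4% of all genes). Unadjusted p was under 0.05 for 2 (13.3%, against 14.3% of all genes). Atp5o, the stator protein that joins the catalytic head to the peripheral stalk (chr16:91925214-91931687, minus strand), had the smallest p of the 83 genes. It had 118 and 121 CPM in KO and 144 and 142 CPM in WT (log2 fold change -0.26, SE 0.06, unadjusted p = 0.00637, edgeR adjusted p = 0.156). The genotypes stood well apart, and the value stayed between -0.28 and -0.24 when each library was left out in turn. Atp5b, the catalytic beta subunit and the most abundant of the 83 by TPM, had 575 and 560 TPM in KO and 681 and 665 TPM in WT. Its CPM was 591 and 592 in KO and 718 and 652 in WT (-0.21, SE 0.08, edgeR adjusted p = 0.32). Atp5a1, the alpha subunit that alternates with beta in the head, had 467 and 436 CPM in KO and 508 and 484 CPM in WT (-0.13, SE 0.08). Atp5k, the e subunit of the membrane part whose NRF1 core is shown above, had 28.8 and 24.9 CPM in KO and 29.0 and 33.9 CPM in WT (-0.23, SE 0.12).

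The c subunit of the rotating ring is encoded by 3 genes for the same mature protein. Atp5g3, the most abundant, had 327 and 303 TPM in KO and 380 and 323 TPM in WT, and Atp5g1 had 205 and 201 TPM in KO and 219 and 214 TPM in WT. Atp5g2 had 205 and 199 TPM in KO and 200 and 153 TPM in WT, with the highest fold change of the 74 subunits (0.19, SE 0.14). Its share of the TPM of the 3 genes was 27.8% and 28.3% in KO and 25.1% and 22.2% in WT (exact permutation p = 0.333, the smallest possible). WT replicate 2 alone was low for Atp5g2, and the CPM of the genotypes overlapped.

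The 3 genes that are not subunits had positive fold changes. Atp5sl (Dmac2 in GENCODE M21), known as a complex I assembly factor, had 16.4 and 15.4 CPM in KO and 13.6 and 13.1 CPM in WT (0.25, SE 0.12, edgeR adjusted p = 0.408). Atp5s, a coupling factor, had 6.34 and 7.17 CPM in KO and 6.42 and 5.39 CPM in WT (0.19, SE 0.19). Cox7a2l, which joins complexes into supercomplexes, had 196 and 188 CPM in KO and 184 and 189 CPM in WT (0.04, SE 0.07). Atp5sl alone of them had no overlap between genotypes.

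Genes that serve the same pathway were read from 8 lists, and no member of any of them was called. The tricarboxylic acid cycle, which supplies the electrons, had a median of -0.19. A negative fold change was found for 17 of its 19 genes (89.5%, against 50.4% of all genes). Both KO libraries were below both WT libraries for 11 (57.9%, against 24.4% of all genes). Pdhb, a subunit of pyruvate dehydrogenase, had 40.8 and 41.1 CPM in KO and 55 and 50.9 CPM in WT (-0.37, SE 0.08, edgeR adjusted p = 0.108). Idh3a, the catalytic subunit of NAD-dependent isocitrate dehydrogenase, had 39.6 and 40.6 CPM in KO and 65.6 and 51.3 CPM in WT (-0.54, SE 0.12, edgeR adjusted p = 0.146). Both genes lay below WT in both KO libraries, as did citrate synthase (Cs), with 194 and 196 CPM in KO and 243 and 216 CPM in WT.

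Of the 17 genes of electron carriers and coenzyme Q synthesis, 14 were below 0 in fold change (82.4%), and the median was -0.10. Both KO libraries were below both WT libraries for 11 (64.7%). Over all genes these shares were 50.4% and 24.4%. Etfb, which passes electrons from fatty acid oxidation, had 47.6 and 55.6 CPM in KO and 62.3 and 63.9 CPM in WT (-0.29, SE 0.09). The 3 genes of this list with a positive fold change were Adck4, Coq4 and Dhodh. Adck4 is a kinase-like protein of coenzyme Q synthesis. It had 39.5 and 35.9 CPM in KO and 28.7 and 28.9 CPM in WT (0.39, SE 0.09, edgeR adjusted p = 0.125). Coq4 (0.20, SE 0.17) also had both KO libraries above both WT libraries, and Dhodh was at 0.02 (SE 0.14). Among the carriers and inhibitors around ATP synthase, 7 of 8 were negative with a median of -0.16. The ADP/ATP carrier Slc25a5 had 103 and 90.5 CPM in KO and 126 and 116 CPM in WT (-0.32, SE 0.09), whereas Slc25a4, which had the highest mean CPM of the list (by TPM, Atpif1 and Slc25a3 were higher), was at 328 and 327 CPM in KO and 338 and 329 CPM in WT.

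The machinery that builds the complexes lay nearer to the whole transcriptome than complexes II and III did. The small mitochondrial ribosomal subunit was close to complex I, with 71% against 74.3% negative and medians of -0.04 and -0.05. Of 47 assembly factors, 26 were negative, with a median of -0.03. Pet100, which helps assemble complex IV, had 17.6 and 15.1 CPM in KO and 11.9 and 11.9 CPM in WT (0.45, SE 0.13, edgeR adjusted p = 0.209). The large mitochondrial ribosomal subunit had 28 of 48 negative with a median of -0.02, the small one 22 of 31 with -0.04, and the factors of mitochondrial DNA and RNA 14 of 29 with 0.00. In the latter list Lrpprc, which stabilises mitochondrial mRNAs, had 40.6 and 35.4 CPM in KO and 51.7 and 47.6 CPM in WT (-0.39, SE 0.09, edgeR adjusted p = 0.149). Both KO libraries were below both WT libraries for 12 of the 47 assembly factors, 12 of the 48 large and 10 of the 31 small ribosomal proteins, and 7 of the 29 DNA and RNA factors, beside 24.4% of all genes. Whether the lists differ from the subunits was not tested.

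**Figure D4:**
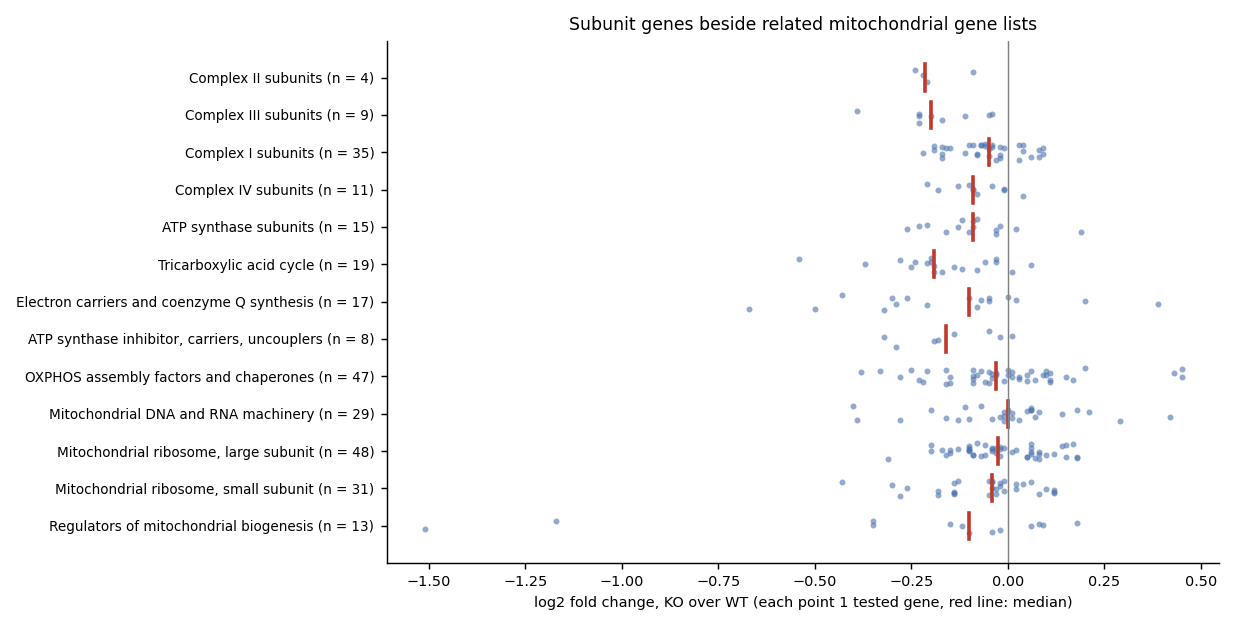
Log2 fold change of KO over WT for each tested gene of the 5 complexes and of 8 related gene lists; each point is 1 gene and the red line is the list's median. Medians run from -0.22 for complex II and -0.19 for the tricarboxylic acid cycle to 0.00 for the mitochondrial DNA and RNA machinery.

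Of 13 tested regulators of mitochondrial biogenesis, 9 were below 0 in fold change, and the median was -0.10. Ppargc1a, which encodes PGC-1alpha, was scarce, with 2.81 and 1.54 CPM in KO and 6.28 and 3.56 CPM in WT (-1.17, SE 0.42, edgeR adjusted p = 0.294), and Esrrg, a nuclear receptor that works with it, had 0.695 and 0.360 CPM in KO and 1.99 and 1.05 CPM in WT (-1.51, SE 0.59). By CPM both were lower in the KO libraries without passing the test. Both were highest in WT replicate 1 and lowest in KO replicate 2, the order of the muscle and adipocyte marker sums. By TPM the genotypes overlapped for Esrrg, at 0.35 and 0.266 in KO and 0.88 and 0.341 in WT. Ppard went the other way, with 64.9 and 66 CPM in KO and 59.3 and 56.5 CPM in WT (0.18, SE 0.07, edgeR adjusted p = 0.319). Nrf1 had 24.1 and 22.9 CPM in KO and 21.3 and 23.3 CPM in WT, and Gabpa had 73.7 and 71.6 CPM in KO and 79.6 and 78.6 CPM in WT. Tfam, which packages and transcribes mitochondrial DNA, had 23.0 and 24.9 CPM in KO and 22.2 and 23.8 CPM in WT. Nrf1 and Tfam overlapped between the genotypes, while Gabpa was slightly below WT in both KO libraries. Nrf1, Gabpa and Tfam were named for their known role, and Ppard for its direction, after their values were seen.

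Outside the pattern, Ndufab1, the acyl carrier protein of complex I, had 45.5 and 40.9 CPM in KO and 56.5 and 51.2 CPM in WT (-0.32, SE 0.09, edgeR adjusted p = 0.2). It too was below WT in both KO libraries without being called, and it was named after its values were seen.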

How the data were processed

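RNA of 4 libraries was sequenced from a stranded mRNA kit, per the labels' protocols, and FastQC, kallisto and the build mm10 are listed in the submitters' processing notes. The sources used here give neither versions nor annotation. Because kallisto splits ambiguous reads by likelihood, genes with near-identical copies carry uncertain counts. The authors deposited estimated counts, not normalized, and TPM, scaled for depth and length. Totals ran from 30550235 to 44561117 counts per library, of which these genes took 0.606% to 0.693%.

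Estimated counts were rounded, and edgeR 4.0.16 under R 4.3.3 was run (quasi-likelihood F-test, robust, TMM, filterByExpr, Benjamini-Hochberg over 14507 genes, threshold 0.05, two-sided), KO against WT with no covariate. SE is the log2 fold change over the square root of F. CPM is scaled to TMM library sizes. Replicate pairs differed by more than sampling noise (chi-square per gene 36.1 for KO and 27 for WT). Each of the 85 genes was found in GENCODE M21 through its transcript (GRCm38, mm10), and that annotation gives the coordinates, counted from 1. The fit was tested on simulated data. Alternatives were other scaling, no filter, no robust estimation, a replicate block, each library left out, DESeq2 1.42.0, and limma 3.58.1 on log2(TPM + 1). The members, lists and tests were chosen with earlier results of these data known. Genes named by rule were the isoforms and their partners, the 10 of smallest p, and in each complex the 3 of highest TPM and of most positive and most negative fold change. Of each other list they were the 2 of smallest p and the one of highest CPM, and from these the text prints those it describes. The deposited sheets of genotype means and of transcription factors were not used.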

Additional observations from a re-analysis of the deposited data

How the results depend on the processing

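No oxidative phosphorylation gene was called under any of the 11 alternatives, whereas the number of genes called over all genes moved from 62 to 133 with library size alone, 491 without the low-count filter, 11 without robust estimation, 265 with the replicate number as a block, 660 with DESeq2, 7 with limma on TPM, and 7 to 77 with each library left out. The median fold change of the tested members lay between -0.12 and -0.04, and 51 to 66 of 74 subunits were negative, counts chosen after seeing the data. Library size alone shifted the median of all genes to -0.041. With the search limited to the bases before the start, the share of subunit genes with a YY1 motif went from 11.3% to 1.61%. The share with an ETS core went from 8.06% to 4.84%, and that with an NRF1 core from 12.9% to 9.68%. Of 473 values for 43 named genes, 457 kept their direction. The 16 that changed sign could only be of uncalled genes, since none of the 43 was called. With limma on TPM they were Sdhc at 0.18, Ndufa10 at 0.01 and Atp5h at 0.02, and with library size alone Ndufa7 at -0.00. With each library left out in turn the values ran from -0.08 to 0.02 for Atp5h, -0.07 to 0.04 for Cox4i1, -0.04 to 0.03 for Cox6a1, -0.31 to 0.19 for Cox6b2, -0.06 to 0.14 for Cox7b, -0.08 to 0.01 for Cox8a, -0.08 to 0.02 for Ndufa3, -0.00 to 0.08 for Ndufa7 and -0.09 to 0.02 for Uqcrh. The sign turned without KO replicate 1 for Cox6a1, Cox6b2, Cox7b and Ndufa7, without KO replicate 2 for Cox4i1, Cox8a and Uqcrh, without WT replicate 1 for Atp5h and Cox4i1, and without WT replicate 2 for Cox6b2 (0.06), Cox7b (-0.01) and Ndufa3. The cause was not tested. Replicate numbers mark no shared animal or day in the labels; deviations of same-numbered libraries correlated at 0.296, and the block moved the members with p under 0.05 from 11 to 15. Scaling without genes of the mitochondrial genome, and their medians and shares, were not run, since those genes were not analysed here. With 2 libraries a genotype, subunit differences of this size were mostly not separable from the spread.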
